A study of Mus musculus with 2 samples.

Results

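Genes for cholesterol synthesis and lipid handling were followed in neutrophils, short-lived phagocytes made in the bone marrow. The 48 genes were chosen by name, with earlier results of these data known. They cover sterol and fatty acid synthesis, sterol traffic, lipases, lipid droplet proteins and the handling of fatty acids. A gene was taken as measured where the platform annotation gave a probe set its symbol alone, which held for 46 of the 48 genes, out of 18193 genes in all. The array signals of Soat1 and Acsl1 were not analysed here. Cells had been sorted for CD11b and Ly6G with low Ly6C from the marrow of mice labelled Jdp2 KO and of mice labelled Jdp2 WT, both of the strain C57BL/6 /129/J mixed background. Jdp2 is a leucine-zipper repressor of the AP-1 and ATF group. There was 1 Affymetrix array per genotype, 2 in all, so no spread between mice could be estimated, differences carry no p-value, and precision is limited by having 2 arrays. The sources used here do not give the age of the mice, the design of the deletion or whether marrow was pooled.

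Cholesterol is built from acetyl-CoA through mevalonate, squalene and lanosterol, and the enzymes of this route are switched on together by the transcription factor SREBP-2 when sterols in the endoplasmic reticulum run low. Its relative SREBP-1 drives mainly fatty acid synthesis, while excess sterol is exported by the transporters ABCA1 and ABCG1. Neutrophils also take up, store and release fatty acids, and lipases and droplet proteins control that store.

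Signals are log2 values, and differences are KO minus WT, so that 1 is 2-fold. Each gene was read from its probe set with the highest mean, and passed a level filter where it reached, on at least 1 array, the median of that array's probe sets (5.67 for KO and 5.65 for WT). Of the 46 genes, 43 passed. Of these, 39 were at or above the median on both arrays, Fasn and Cd36 on the KO array alone, and Scd1 and Fads2 on the WT array alone. For these 4 genes the filter itself all but fixed the direction. Sqle, Elovl6 and Fads1 did not pass.

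The 11 measured neutrophil markers lay at or above the 92.3rd percentile of the KO array and the 94.1st percentile of the WT array, with differences between -0.43 and 0.24. Jdp2 was not lower under the KO label: its stronger probe set read 12.38 in KO and 11.997 in WT. The position of the probes relative to the deletion is unknown, so the labels are unchecked by the targeted gene and each direction refers to the arrays as labelled. All 4 measured primary granule genes were at least 2-fold higher in KO, beside 3.06% of all genes that passed. Of the 4, Prtn3 and Ctsg passed on the KO array alone, which all but fixed their direction. The summed linear signal of the 4 was 3223 in KO and 152 in WT. Of 17 monocyte and macrophage markers, 15 were above 0, beside 5007 of all 11168 genes that passed. At least 2-fold higher were 10 of the 17, beside 3.06% of all genes. Of the 17, 6 passed on the KO array alone, which all but fixed their direction, namely F13a1, Ms4a6c, C1qa, C1qc, Cx3cr1 and Cd5l. Among the 10 at least 2-fold higher were F13a1, Ms4a6c, C1qa and C1qc. The summed linear signal of the 17 was 9503 in KO and 5729 in WT. None of these 17 was below the median on both arrays. These markers moved beside every gene group described here, and their part in the differences was not tested. Fewer cells of a type and less RNA per cell cannot be told apart in such bulk samples.

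By median difference the lipid genes as a set lay near the rest of the transcriptome, and a few members stood far from it. Of the 43 that passed, 37 lay within 2-fold. Fabp4 and Fasn were at least 2-fold higher in KO, which is 4.65% of the 43 against 3.06% of all 11168 genes that passed. Lipg, Acot1, Sc5d and Acaca were at least 2-fold lower, which is 9.30% against 2.33% of all genes. Under quantile or loess normalization this split of 2 higher and 4 lower became 2 and 2, because Sc5d and Acaca lay just inside 2-fold there. The difference was below 0 for 26 of the 43, 60.5% against 55.1% of all genes. The median difference was -0.05 for the 43 genes and -0.04 for all genes that passed.

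**Figure D1:**
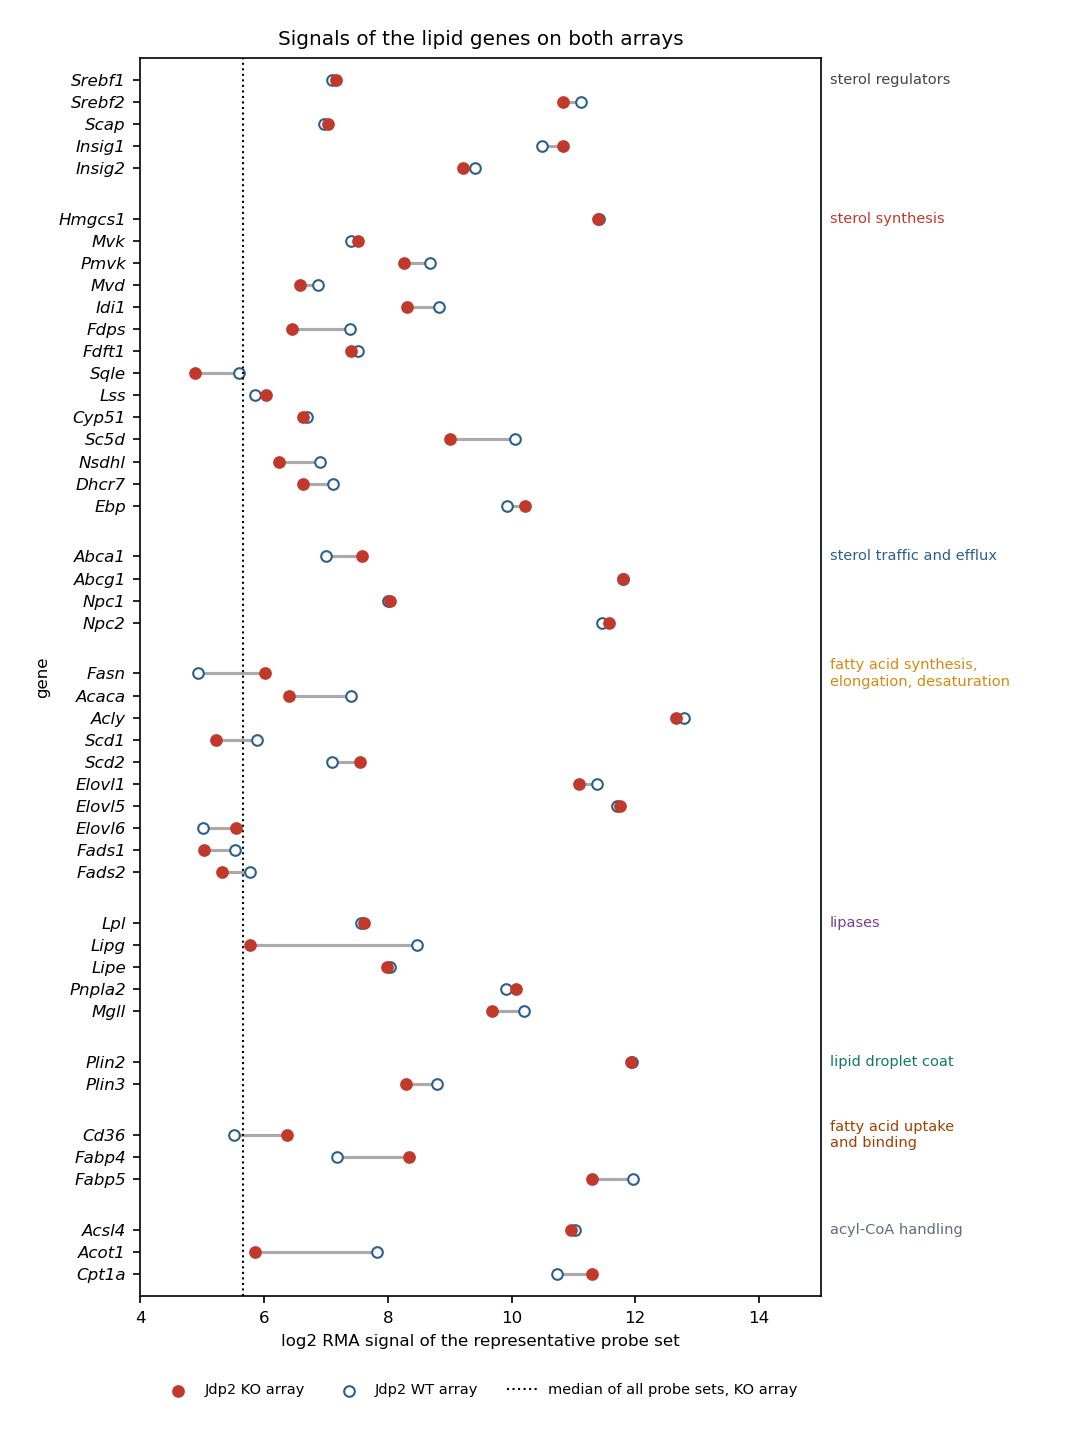
Log2 signal (horizontal axis) of the representative probe set of each of the 46 genes (vertical axis, grouped by role) on the Jdp2 KO array (filled points) and the Jdp2 WT array (open points), with 1 array per genotype and the median of all probe sets on the KO array as a dotted line. Most pairs nearly coincide, while Lipg (5.78 in KO, 8.47 in WT) and Acot1 (5.86 in KO, 7.82 in WT) are far apart.

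A measure of technical scatter comes from genes with several probe sets. Over the 4867 genes with more than 1 passing probe set, the median SD of the difference between probe sets of a gene was 0.22, which reflects probes on shared RNA and not mice. Among the 22 lipid genes with more than 1 passing probe set, all of a gene's passing probe sets were below 0 in 13 genes and above 0 in 6. They disagreed in sign in 3, namely Insig2, Hmgcs1 and Npc2. Both passing probe sets of Cd36 and of Fads2 passed on 1 array alone. So did the weakest passing probe sets of Lss, Sc5d, Lipg, Acaca and Acsl4. For these the filter all but fixed the direction. Of the 76 passing probe sets of lipid genes, 49 were below 0, beside 54.8% of all passing probe sets. Agreement within a gene was not counted over all genes. Differences under about the size of this scatter are given as values only.

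The sensors that set the rate of sterol synthesis differed little. Srebf2, which encodes SREBP-2, read 10.83 in KO and 11.12 in WT, a difference of -0.29, and its second probe set differed by -0.08. Srebf1, for SREBP-1, read 7.17 in KO and 7.10 in WT. Scap, for the escort protein that carries the SREBPs to the Golgi, read 7.03 in KO and 6.97 in WT. These 3 genes thus stayed within 0.3 of equality on both arrays. Insig1, for an anchor that holds SCAP back when sterols are plentiful and is itself an SREBP target, read 10.83 in KO and 10.49 in WT, a difference of 0.34. Insig2, for the related anchor, read 9.21 in KO and 9.40 in WT, and its 3 probe sets ran from -0.49 to 0.02. None of the 5 regulator genes differed by 0.5 or more.

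Genes for the enzymes of cholesterol synthesis were mostly lower in KO by small amounts. Of the 13 that passed, all on both arrays, 10 were below 0 (9 after quantile normalization), which is 76.9% against 55.1% of all genes. Hmgcs1, Cyp51 and Fdft1 among the 10, and Mvk and Lss above 0, differed by less than the scatter between probe sets of 0.22. Read without suffixed probe sets, 8 of 12 were below 0, which is 66.7% against 55.4% of all genes so read. The median was -0.30, between -0.31 and -0.26 under the other scalings. Sc5d, Fdps, Nsdhl and Idi1 were lower by at least 0.5, which is 30.8% of the 13, beside 11.6% of all genes that passed. Only Sc5d reached 2-fold, and no enzyme gene of this role was higher by 0.5 or more in its representative probe set. These shares describe the 2 arrays and are no test.

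The early, mevalonate part of the route was uneven. Hmgcs1, for the HMG-CoA synthase that opens it, read 11.39 in KO and 11.42 in WT, and its 5 probe sets ran from -0.44 to 0.03. Its representative difference, -0.03, turned to 0.004 after quantile normalization. Mvk, for mevalonate kinase, read 7.51 in KO and 7.41 in WT, with its second probe set at 0.42. The next kinase gene, Pmvk, read 8.26 in KO and 8.68 in WT, and Mvd, for the decarboxylase that follows, read 6.58 in KO and 6.87 in WT. The steps after mevalonate kinase were thus lower in KO, by 0.42 and 0.30 on the log2 scale.

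In isoprenoid assembly Idi1 and Fdps were lower by more than these, while Fdft1 was near equal in its representative probe set. Idi1, for the isomerase of the activated isoprene unit, read 8.30 in KO and 8.83 in WT with 1 probe set, and 6.51 in KO and 7.98 in WT with the other, differences of -0.52 and -1.47. Both probe sets were lower, although by unequal amounts. Fdps, for the synthase of farnesyl diphosphate, read 6.45 in KO and 7.39 in WT, a difference of -0.93, and its second probe set was below the median on both arrays. Fdft1, for squalene synthase, differed by -0.11 and -0.80 in its passing probe sets. Sqle, for squalene epoxidase, read 4.89 in KO and 5.59 in WT, below the median on both arrays, where no difference can be read.

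Around lanosterol the probe sets gave no single picture. Lss, for lanosterol synthase, read 6.03 in KO and 5.85 in WT with its representative probe set, but 5.77 in KO and 3.87 in WT with another, a difference of 1.89 that came to 0.12 once the lower value was raised to the array median. Cyp51, for the lanosterol demethylase, read 6.62 in KO and 6.70 in WT, while its 2 probe sets below the median differed by 0.05 and 0.63. On the WT array all other probe sets of both genes were below the median.

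By representative probe set, a late step, that of Sc5d, held the largest difference among the listed enzyme genes. Fdps, at -0.93, nevertheless exceeded the late genes Nsdhl, Dhcr7 and Ebp, and the second probe set of Idi1 was at -1.47. Sc5d, for the C5 desaturase, read 9.01 in KO and 10.06 in WT, a difference of -1.06, and -0.98 after loess normalization. A second probe set of Sc5d, which passed on the WT array alone, differed by -1.74, or -1.34 with the KO value raised to the median. The third, at -0.59, was below the median on both arrays, where no difference can be read. Nsdhl, for a dehydrogenase that removes C4 methyl groups, read 6.24 in KO and 6.91 in WT, a difference of -0.67. Dhcr7, for the reductase that makes cholesterol from 7-dehydrocholesterol, read 6.63 in KO and 7.11 in WT. Ebp, for the sterol isomerase that acts before SC5D, went the other way, at 10.21 in KO and 9.93 in WT.

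Other genes of the same route, listed by function and not among the 48, showed the same unevenness. Hsd17b7, for the ketoreductase of C4 demethylation, read 6.41 in KO and 7.75 in WT, a difference of -1.34, and its second passing probe set differed by -1.01. Named after their values were seen, Msmo1, for the C4 methyl oxidase, differed by -0.65 and Stard4, for a sterol carrier protein, by -0.90, while Erg28, whose yeast counterpart tethers the C4 demethylation enzymes, differed by 0.78. Both passing probe sets of Msmo1 and of Stard4 were below 0. The 3 measured C4 demethylation enzymes, Msmo1, Nsdhl and Hsd17b7, were thus all lower in KO. Of 8 other sterol synthesis and uptake genes that passed, 7 were below 0, beside 55.1% of all genes, with a median of -0.34. Idi2, among the 7, passed on the WT array alone, which all but fixed its direction. Of the 18 genes of the ordered route that passed, lipid list and others together, 14 were below 0, beside 55.1% of all genes, and 6 were lower by at least 0.5, beside 11.6% of all genes.

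**Figure D2:**
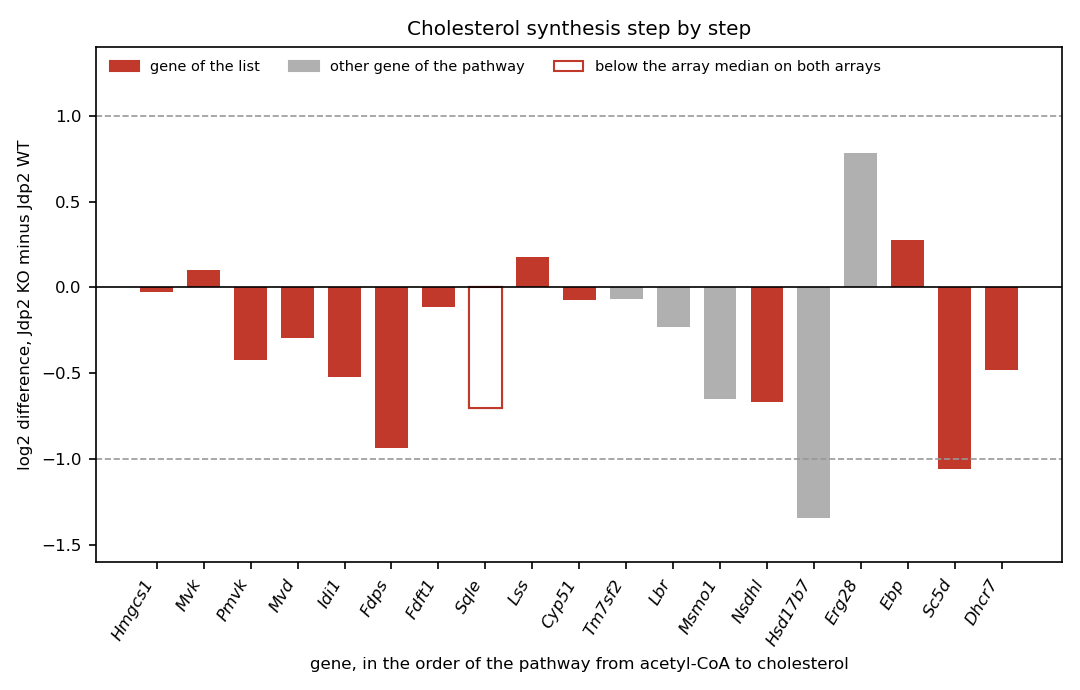
Log2 difference, Jdp2 KO minus Jdp2 WT (vertical axis), of each measured gene of the cholesterol route in pathway order (horizontal axis), 1 representative probe set a gene and 1 array per genotype, with dashed lines at 2-fold. Of the 18 filled bars 14 lie below 0, the lowest being Hsd17b7 (-1.34) and Sc5d (-1.06), and the open bar is Sqle, below the median on both arrays.

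Promoters of the sterol synthesis genes shared a sequence feature that their choice did not use. RefSeq start sites of build GRCm38.p6 were in the promoter table for 36 of the 48 genes, and the 250 bases before each site were searched on both strands. The CCAAT box, the letters bound by NF-Y, a factor known to work beside SREBP, was read as CCAAT or, on the other strand, ATTGG. It stood before at least 1 start site of 11 of 11 sterol synthesis genes and of 15 of 25 other lipid genes, against 37.5% of all 27025 genes in the table. By start site, 11 of 14 sterol synthesis promoters held it, against 33.8% of all promoters. The sterol regulatory element letters TCACNCCAC were found only for Hmgcs1 and Acsl1 among the 36 genes (1.22% of all genes). The AP-1 letters TGACTCA were found for Dhcr7 alone (5.16% of all genes), and the ATF letters TGACGTCA for no lipid gene (1.77% of all genes). These are letter matches in a fixed window, and neither a match nor its absence says whether a factor binds.

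The promoters of 3 sterol genes that read lower in KO, of Hmgcs1, nearly equal in its representative probe set, and of Acot1 are printed to show where the CCAAT boxes lie. Each is the 250 bases before the start site, 5′ to 3′ on the gene's strand, with CCAAT or ATTGG in capitals and, in Hmgcs1, also the sterol regulatory element TCACCCCAC. Idi1 is at chr13:8885356-8885605 (plus strand), Sc5d at chr9:42264301-42264550 (minus strand), Nsdhl at chrX:72918271-72918520 (plus strand), Hmgcs1 at chr13:119690101-119690350 (plus strand) and Acot1 at chr12:84009252-84009501 (plus strand).
Idi1: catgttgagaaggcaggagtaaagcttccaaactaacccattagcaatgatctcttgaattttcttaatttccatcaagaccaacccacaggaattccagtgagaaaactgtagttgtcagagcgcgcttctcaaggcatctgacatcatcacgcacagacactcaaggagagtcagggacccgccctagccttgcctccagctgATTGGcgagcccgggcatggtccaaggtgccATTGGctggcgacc
Sc5d: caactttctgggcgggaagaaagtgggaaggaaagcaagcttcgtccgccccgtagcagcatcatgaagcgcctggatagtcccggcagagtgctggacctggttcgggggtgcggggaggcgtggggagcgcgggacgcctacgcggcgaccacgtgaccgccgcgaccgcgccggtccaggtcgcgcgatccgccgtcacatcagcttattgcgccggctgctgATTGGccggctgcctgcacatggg
Nsdhl: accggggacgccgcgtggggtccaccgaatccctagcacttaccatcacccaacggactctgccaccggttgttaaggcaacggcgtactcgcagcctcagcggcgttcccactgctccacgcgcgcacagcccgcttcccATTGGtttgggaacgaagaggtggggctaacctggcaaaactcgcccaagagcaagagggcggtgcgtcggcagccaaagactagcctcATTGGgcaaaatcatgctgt
Hmgcs1: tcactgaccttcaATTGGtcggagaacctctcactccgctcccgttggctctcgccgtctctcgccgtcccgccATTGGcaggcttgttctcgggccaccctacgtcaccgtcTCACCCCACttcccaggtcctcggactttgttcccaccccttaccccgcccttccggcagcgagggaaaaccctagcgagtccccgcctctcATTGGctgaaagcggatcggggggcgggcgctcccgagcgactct
Acot1: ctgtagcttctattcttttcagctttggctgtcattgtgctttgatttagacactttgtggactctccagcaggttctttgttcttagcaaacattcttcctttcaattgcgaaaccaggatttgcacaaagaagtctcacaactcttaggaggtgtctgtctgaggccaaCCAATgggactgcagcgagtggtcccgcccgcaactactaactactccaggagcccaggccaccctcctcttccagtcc
Idi1 has ATTGG starting 45 and 14 bases before its start site, Sc5d 24 bases before, and Nsdhl 109 and 20 bases before. Hmgcs1 has it at 237, 176 and 45 bases, with the sterol regulatory element at 137 bases. CCAAT boxes near the start site were thus present both in genes lower in KO by at least 0.5 and in Hmgcs1, whose representative difference was -0.03 and of whose 5 probe sets 4 were below 0. Mvk, Ebp and Lss, above 0 in their representative probe sets, also held CCAAT boxes within the 250 bases.

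Of the sterol traffic genes, Abcg1, Npc1 and Npc2 were close to equal in their representative probe sets and Abca1 was higher in KO. Abcg1, for the transporter that passes cholesterol to high-density lipoprotein, read 11.80 in KO and 11.81 in WT, and this difference of -0.01 changed sign after loess normalization. A second, weaker probe set of Abcg1 differed by -0.61. Abca1, for the transporter that loads cholesterol onto apolipoprotein A-I, read 7.59 in KO and 7.004 in WT, a difference of 0.59, but its other probe sets, both below the median, differed by -0.58 and -0.23. The lysosomal cholesterol exporters Npc1 and Npc2 read 8.04 in KO and 7.997 in WT, and 11.58 in KO and 11.46 in WT. Of 9 passing genes listed with the sterol efflux pathway, 6 were below 0, beside 55.1% of all genes, and none reached 2-fold. Cyp27a1, for the mitochondrial sterol 27-hydroxylase, had the largest measured difference at 6.05 in KO and 5.13 in WT, but passed on the KO array alone. Rxra, for the nuclear receptor that pairs with the sterol sensor LXR and named after its value was seen, read 7.33 in KO and 8.15 in WT, both above the medians.

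In fatty acid synthesis Acaca was lower in KO, Acly was near equal, and Fasn could be read only near background. Acly, for the enzyme that makes cytosolic acetyl-CoA from citrate, read 12.65 in KO and 12.80 in WT. Acaca, for the acetyl-CoA carboxylase that commits carbon to fatty acids, read 6.40 in KO and 7.40 in WT, a difference of -1.003 that lay at -0.96 after loess normalization, and its second probe set differed by -0.50. Fasn, for the fatty acid synthase that follows, read 6.02 in KO and 4.93 in WT, a difference of 1.09 from its single probe set. The WT value of Fasn was below the array median, and with it raised to that median the difference was 0.37. Fasn therefore reached 2-fold only by a reading near background.

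Among the genes of the lipid list that lengthen or desaturate fatty acids, none reached 2-fold in its representative probe set. Elovl1, for an elongase of very long chains, was lower in all 4 of its probe sets, from -0.42 to -0.23, with the representative at 11.09 in KO and 11.39 in WT. Elovl5, for the elongase of polyunsaturated chains, read 11.75 in KO and 11.71 in WT, and both of its probe sets differed by 0.04. Scd1, for the stearoyl-CoA desaturase that makes oleate, read 5.22 in KO and 5.89 in WT. Scd1 passed on the WT array alone, and its difference shrank to -0.22 with the KO value raised to the median. Its relative Scd2 read 7.55 in KO and 7.11 in WT, while its 2 probe sets below the median differed by -0.07 and -0.03 and the mean over all 3 was 0.12. The desaturase gene Fads2 differed by -0.46, or -0.11 on that basis, and Fads1 and Elovl6 did not pass. Of 13 other passing genes of fatty acid and triglyceride synthesis, 10 were below 0, beside 55.1% of all genes. Acacb, among the 10, passed on the WT array alone, which all but fixed its direction. The largest difference was that of Hacd3, for a dehydratase of chain elongation, which read 8.54 in KO and 7.34 in WT and was higher in all 3 of its probe sets, from 0.66 to 1.37.

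Among lipases 1 gene stood apart. Lipg, for endothelial lipase, a secreted phospholipase that acts on lipoproteins, read 5.78 in KO and 8.47 in WT with its representative probe set, and 4.28 in KO and 8.02 in WT with another. The fold was 6.45 lower in KO with the representative probe set and 5.13 with the other once the KO value was raised to the array median. A further probe set of Lipg, below the median on both arrays, differed by -0.41. Lipg ranked 11 from the lowest of 11168 genes, and its representative signal on the KO array was just above the array median. The related Lpl, for lipoprotein lipase, read 7.61 in KO and 7.57 in WT. Its second probe set, below the median on both arrays, differed by -0.85. By representative probe set the paralogs thus did not share the difference.

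The intracellular lipases act one after another on stored triglyceride. Pnpla2, for adipose triglyceride lipase, read 10.08 in KO and 9.92 in WT. Lipe, for hormone-sensitive lipase, read 7.99 in KO and 8.03 in WT, a difference of -0.04 that changed sign after loess or quantile normalization. Mgll, for the monoglyceride lipase that ends the sequence and also degrades an endocannabinoid, read 9.69 in KO and 10.20 in WT. All 4 probe sets of Mgll were below 0, from -0.84 to -0.11. The value without suffixed probe sets was -0.11, from a probe set below the median on both arrays. The droplet coat gene Plin2 read 11.93 in KO and 11.94 in WT, while Plin3 read 8.29 in KO and 8.79 in WT. Of 4 passing genes listed as droplet and lipase regulators, 3 were below 0, beside 55.1% of all genes. Plin5, for a droplet protein of oxidative tissues, read 5.44 in KO and 6.36 in WT and passed on the WT array alone.

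**Figure D3:**
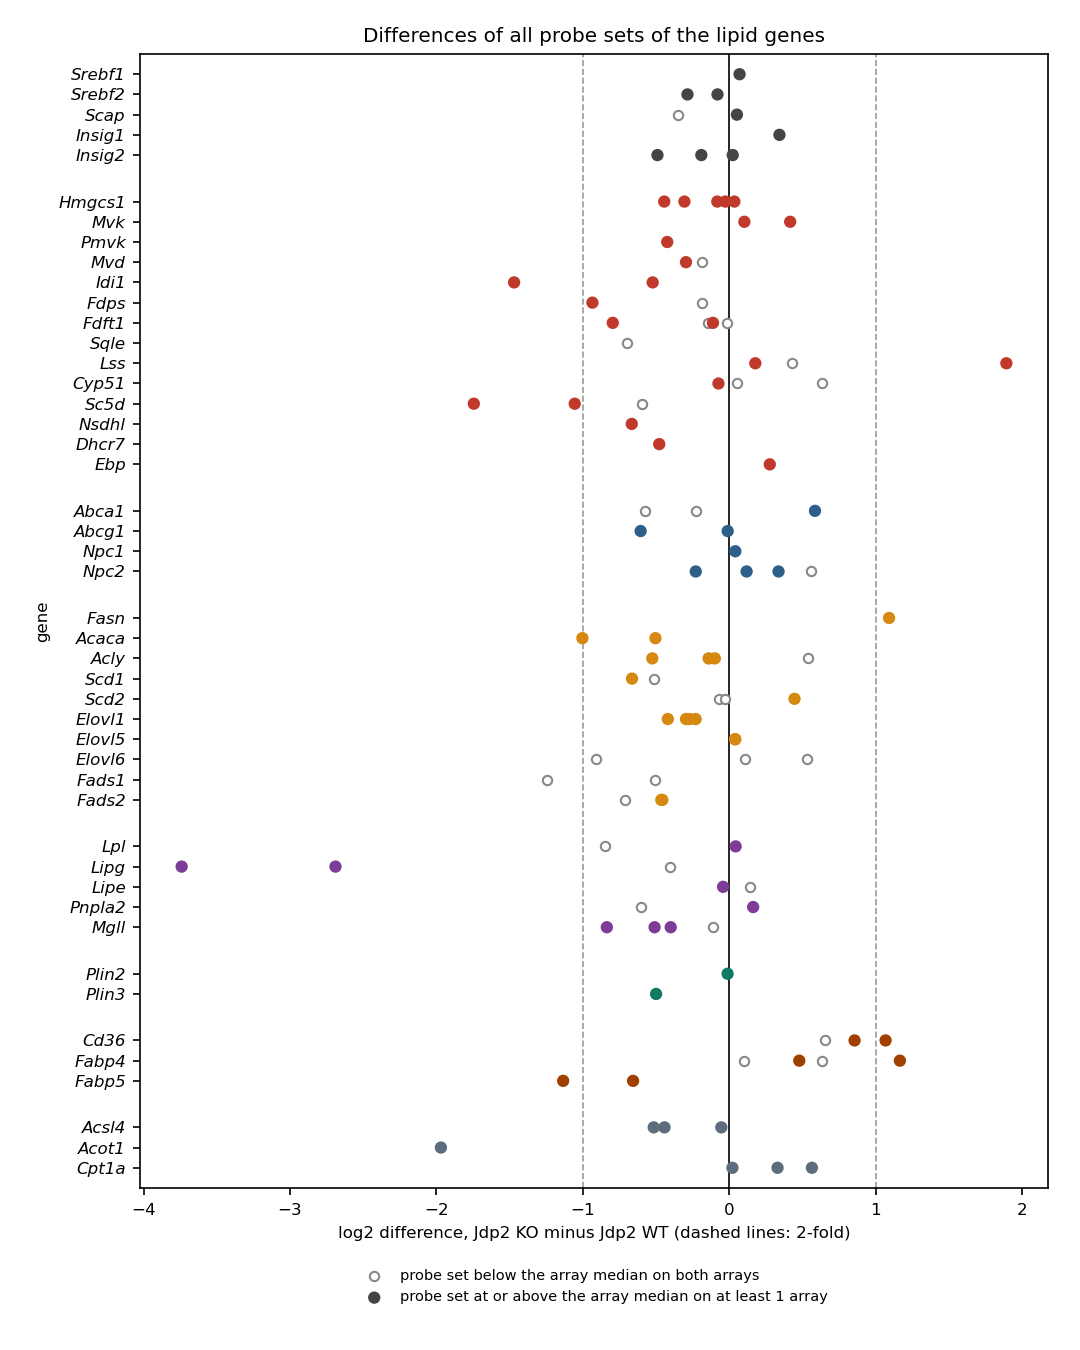
Log2 difference, Jdp2 KO minus Jdp2 WT (horizontal axis), of each of the 109 probe sets of the 46 genes (vertical axis, order and colours by role), 1 array per genotype. Filled points were at or above the array median on at least 1 array and open points below it on both, with dashed lines at 2-fold. The 2 filled points of Lipg, at -3.74 and -2.69, are the lowest, and the filled points of Lss, at 0.18 and 1.89, are the widest pair among genes higher in KO.

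Genes for fatty acid uptake and binding differed in both directions. Fabp4, for the fatty acid chaperone of macrophages, fat cells and capillary endothelium, read 8.34 in KO and 7.18 in WT, a difference of 1.17. All 4 probe sets of Fabp4 were above 0, from 0.10 to 1.17, and their mean was 0.59, under 2-fold. The second passing probe set differed by 0.48. The other 2, at 0.63 and 0.10, were below the median on both arrays. Cd36, for the scavenger receptor that takes up fatty acids and oxidised lipoproteins, read 6.37 in KO and 5.52 in WT with 1 probe set and 6.27 in KO and 5.20 in WT with another. All 3 WT values of Cd36 were below the array median, and with low values raised to the median the differences of these 2 probe sets were 0.72 and 0.62. The third probe set was below the median on both arrays. Fabp5, for a fatty acid chaperone of many cell types, went the other way, at 11.31 in KO and 11.96 in WT with its stronger probe set and 9.24 in KO and 10.37 in WT with the other. Its differences were -0.66 and -1.13, so that the weaker probe set passed 2-fold. Thus 2 paralogous fatty acid binding genes had opposite signs in their passing probe sets.

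Marker values belong beside Fabp4 and Cd36, since other cell types express both. The monocyte and macrophage markers had a median difference of 1.07 and ran from -0.93 for Timd4 to 2.43 for F13a1. F13a1 was among the 6 of the 17 that passed on the KO array alone, while Mrc1 read 8.78 in KO and 7.13 in WT. Timd4 and Marco, both expressed by tissue macrophages, went the other way, with differences of -0.93 and -0.57. Of 6 passing megakaryocyte and platelet markers, 4 were above 0 and 3 at least 2-fold higher, beside 3.06% of all genes at least 2-fold higher. The summed linear signal of these markers was 4770 in KO and 2822 in WT. Of 6 measured fat cell markers, Adipoq, Lep and Cidec were below the median on both arrays, while Retn, at 7.42 in KO and 7.28 in WT, Lpl and Fabp4 itself passed. Of 7 endothelial markers, Cdh5, Tek, Emcn and Vwf were below the median on both arrays, while Pecam1, Kdr and Egfl7 passed with differences between -0.17 and 0.18. The part of macrophage or platelet RNA in the differences of Fabp4 and Cd36 was not tested.

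Handling of acyl-CoA held the second lowest value of the lipid genes. Acot1, for a cytosolic thioesterase that splits long-chain acyl-CoA, read 5.86 in KO and 7.82 in WT, a difference of -1.97, or 3.92-fold lower, from its single probe set. It ranked 32 from the lowest of all genes that passed. The mouse genome holds close copies of this gene next to it, so the identity of the signal is uncertain, and the adjacent Acot2 probe set, named after its value was seen, read 9.87 in KO and 9.77 in WT. Acot1 lies on chromosome 12 with Jdp2, with 39 protein-coding genes of the RefSeq table between them, and Npc2 lies there with 16 between. Of the 49 passing genes among the 50 nearest protein-coding genes on each side of Jdp2, 2 differed by at least 2-fold, Acot1 and Nrp, which is 4.08% against 5.39% of all genes. Whether strain alleles near Jdp2 bear on Acot1 was not tested.

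The gene at the gate of mitochondrial fatty acid oxidation was slightly higher in KO in its representative probe set. Cpt1a, for the carnitine palmitoyltransferase of that gate, read 11.29 in KO and 10.73 in WT, a difference of 0.56, with its other probe sets at 0.33 and 0.02. All 3 probe sets were above 0, but the size ran from 1.02-fold to 1.48-fold. The value of 0.02 lay within the scatter between probe sets, so it gives no direction. It was also the value without suffixed probe sets. Acsl4, for the synthetase that activates arachidonate, read 10.97 in KO and 11.02 in WT, and its weaker probe sets differed by -0.52 and -0.44. Of 24 other passing genes of acyl-CoA metabolism and beta-oxidation, 13 were below 0 and 11 above, near the 55.1% of all genes below 0. Ppara, among the 11, passed on the KO array alone, which all but fixed its direction. The median of the 24 was -0.04. Slc27a1, for a fatty acid transport protein with acyl-CoA synthetase activity, was the only one past 2-fold, at 7.50 in KO and 6.42 in WT, and its second probe set differed by 0.24.

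**Figure D4:**
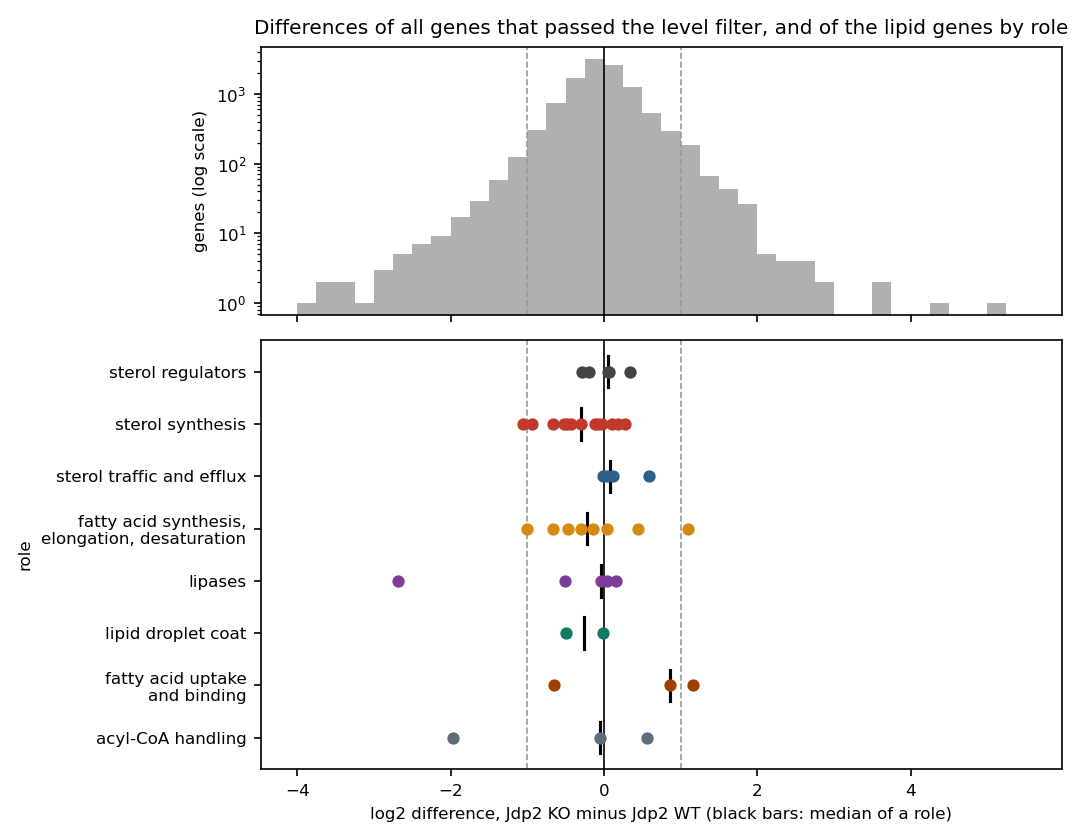
Distribution of the log2 difference, Jdp2 KO minus Jdp2 WT, over the 11168 genes that passed the level filter (upper panel, number of genes on a log scale) and the values of the 43 lipid genes that passed, by role (lower panel, black bars for the median of a role), 1 array per genotype. The sterol synthesis median lies at -0.30, and Lipg and Acot1 lie far to the left of the rest.

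The counts by role are small, and differences between roles were not tested. Sterol synthesis had 10 of 13 passing genes below 0, fatty acid synthesis 5 of 8, the lipases 3 of 5 and the regulators 2 of 5, beside 55.1% of all genes. Sterol traffic had 1 of 4 below 0, fatty acid uptake and binding 1 of 3, the droplet coat 2 of 2 and the handling of acyl-CoA 2 of 3. Over all roles 10 of the 43 genes were lower by at least 0.5 (23.3%, against 11.6% of all genes) and 5 were higher by at least 0.5 (11.6%, against 10.4% of all genes). Among the 39 genes at or above the median on both arrays, 24 were below 0, against 55.9% of all genes so chosen.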

How the data were processed

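Total RNA of sorted marrow neutrophils was extracted with Trizol and labelled with biotin, per the labels' protocols. The deposited values are log2 probe set summaries that the authors made with RMA (named in the submitters' processing notes); the sources used here give neither its version and settings nor a genome build. Sorted by size, the values of both arrays differed by at most 0.117, so each was already close to 1 common distribution. RMA gives no detection call, and differences near background are compressed and noisy.

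Of 45037 probe sets that were not controls, 34945 had 1 symbol in the platform annotation, 932 had several and 9160 were unlisted. Symbols were updated by Entrez identifier through RefSeq (GRCm38.p6). With 1 array per group no test was possible, so differences were called by size, at least 1 on the log2 scale, and set beside the same count over all genes. No test is fitted across genes. Values were computed with Python 3.11.15, pandas 2.3.3 and statsmodels 0.14.6 (loess span 0.3), and the steps were tested on simulated data.

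The genes and lists were chosen with earlier results of these data known. Given in full were genes that passed and differed by at least 0.5, the regulators, and the 2 genes with the highest signal per role; other pathway genes were named at a difference of at least 1 or as the largest of their list. The alternatives were other level filters, scalings and probe set choices, and raising low values to the array median.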

Additional observations from a re-analysis of the deposited data

How the results depend on the processing

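The lipid genes at least 2-fold higher in KO numbered 2 and those at least 2-fold lower 4. The count of higher genes was 1 with the filter at the 75th percentile, with the filter on both arrays and with low values raised to the median (Fabp4 in each), and 1 with probe sets averaged and without suffixed probe sets (Fasn in each). The count of lower genes was 2 with the 75th percentile filter (Lipg and Sc5d) and 2 after quantile or loess normalization (Lipg and Acot1), and 3 to 5 under the others. The median over the lipid genes that passed stayed below 0 under all 9 alternatives, from -0.22 with the mean of all probe sets to -0.02 after loess. No difference of at least 2-fold changed sign under any of them. Over the 46 genes and 9 alternatives, 381 differences stayed on their side of 2-fold and moved by less than the scatter between probe sets, 24 stayed on their side but moved by more than that scatter, 8 dropped under 2-fold and 1, that of Fabp5, passed it. Without suffixed probe sets Pnpla2 was at -0.60, read from a probe set below the median on both arrays. No paired analysis was possible because each genotype has 1 array. What limits these results is the single array per genotype, for Sqle, Lss, Fasn, Cd36, Scd1, Elovl6, Fads1 and Fads2 a signal near or below the array median, and for Lipg and Acot1 a KO signal just above it.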
